A study of Mus musculus with 6 samples.

Results

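The mRNAs of 7 selenoproteins of the endoplasmic reticulum (ER), Selenof, Selenok, Selenom, Selenon, Selenos, Selenot and Selenoi, were followed in mouse pancreatic islets. The genes were chosen by protein location, not by a measured value, but with earlier results of these data known. Their probes were found through the RefSeq accessions of the array annotation. The 7 genes had 10 probes among the 39426 measured on all arrays, and all 7 were among the 19021 genes tested. Islets came from 3 groups of mice with 2 arrays each. Trsp-RIPKO mice carried Trsp Flox/Flox with RIP-Cre, Trsp-Ins1KO mice carried Trsp Flox/Flox with Ins1-Cre, and TrspFF mice carried Trsp Flox/Flox alone, so that the floxed allele was common to all groups and no group carried Cre without the floxed allele. All mice were on the ICR background, 16 weeks old and labelled male. Whether both arrays of a group came from different animals is not given in the labels, so p-values cover the spread between arrays, possibly a technical one.

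Trsp encodes the transfer RNA that inserts selenocysteine at UGA codons, and selenoproteins cannot be made without it. RIP-Cre is driven by a rat insulin promoter and Ins1-Cre from the mouse Ins1 gene, so both act in beta cells, while the other cells of the islet keep Trsp. RIP-Cre is also known to act in parts of the brain. Of the proteins studied here, Selenos and Selenok are membrane proteins of ER-associated degradation, the route by which misfolded proteins leave the ER. Selenot, Selenom and Selenof have thioredoxin-like folds, and Selenof binds the glycoprotein-folding sensor Uggt1. Selenon acts on ER calcium handling, and Selenoi makes phosphatidylethanolamine. The arrays measured their mRNA, not the proteins.

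Selenot mRNA was the most reduced of the group. On its brighter probe, Selenot fell to 48.7% of the TrspFF mean in Trsp-RIPKO islets and to 40.0% in Trsp-Ins1KO islets. Selenof, Selenok and Selenoi were also called lower in both knockout lines, to between 71.9% and 78.1% of TrspFF. Selenos was called lower in Trsp-RIPKO islets and Selenom in Trsp-Ins1KO islets, whereas Selenon was called in neither. The dimmer second probes of Selenot and Selenok were called in neither line. No member was called higher, and none was called different between the knockout lines. Over all genes tested, 17.5% were called lower and 18.9% higher in Trsp-RIPKO against TrspFF. In Trsp-Ins1KO against TrspFF 23.0% were called lower and 23.0% higher, and between the knockout lines 38.7% were called.

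The upstream sequences of 3 members are shown here as examples: Selenot had the lowest differences of the group, the Selenok promoter is the only one of the 7 with a match to the ARE letters, and that of Selenos has a CCAAT box on each strand. Each is the 250 bases before the annotated start, 5′ to 3′ on the gene's strand, from RefSeq (GRCm38.p6). Capitals mark every match to the motifs described below them.
Selenot promoter, chr3:58576386-58576635, plus strand: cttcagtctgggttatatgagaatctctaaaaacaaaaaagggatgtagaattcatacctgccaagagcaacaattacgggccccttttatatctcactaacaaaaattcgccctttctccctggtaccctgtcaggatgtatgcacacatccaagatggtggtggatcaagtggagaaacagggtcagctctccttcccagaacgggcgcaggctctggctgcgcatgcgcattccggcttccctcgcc
Selenok promoter, chr14:29968130-29968379, plus strand: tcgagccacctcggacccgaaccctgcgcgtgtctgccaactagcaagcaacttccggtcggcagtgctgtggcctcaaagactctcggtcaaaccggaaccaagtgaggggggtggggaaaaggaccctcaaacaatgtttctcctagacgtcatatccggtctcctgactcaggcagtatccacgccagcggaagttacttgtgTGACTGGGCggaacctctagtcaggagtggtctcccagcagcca
Selenos promoter, chr7:66079399-66079648, plus strand: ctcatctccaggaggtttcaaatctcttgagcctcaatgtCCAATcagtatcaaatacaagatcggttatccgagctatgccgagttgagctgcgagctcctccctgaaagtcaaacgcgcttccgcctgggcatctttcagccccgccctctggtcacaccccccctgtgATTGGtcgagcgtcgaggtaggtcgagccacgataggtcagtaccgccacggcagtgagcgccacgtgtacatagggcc
The search covered both strands of these 250 bases for all 7 members. It used the ER stress element ERSE (CCAAT and CCACG with any 9 bases between), the unfolded protein response element UPRE (TGACGTGG), the CCAAT box (CCAAT, which ERSE contains), the amino acid response element CARE (TGATGNAA) and the antioxidant response element ARE (TGACNNNGC). ERSE, UPRE and CARE had no match in any member. They occurred in 0.113%, 0.563% and 3.45% of 32851 RefSeq promoters of the same length. The ARE letters occurred only in Selenok, 44 to 36 bases before the start, and in 10.2% of promoters. The CCAAT box occurred 2 times in Selenof, 2 times in Selenos and 1 time in Selenoi, and in 33.8% of promoters. Selenot, Selenom and Selenon matched none of the motifs. A match is only a run of letters, and no match says nothing about a factor.

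Before the results, several features of the arrays need stating. The 75th percentile of processed intensity, to which every level is scaled, was 215.2 and 203.0 in Trsp-RIPKO, 121.9 and 110.7 in Trsp-Ins1KO, and 247.2 and 218.1 in TrspFF, so the Trsp-Ins1KO arrays were the dimmest. All 10 beta-cell markers were well above background on every array. Although all mice were labelled male, the X-inactivation transcript Xist was well above background on all Trsp-RIPKO and TrspFF arrays and on no Trsp-Ins1KO array. Its brighter probe stood at 1.05 and 1.34 in Trsp-RIPKO, -5.79 and -5.60 in Trsp-Ins1KO, and -0.56 and -0.32 in TrspFF (log2 over the 75th percentile). The Y-linked Ddx3y and Eif2s3y were well above background on all 6 arrays but lowest in Trsp-RIPKO. Ddx3y stood at -0.53 and -0.44 in Trsp-RIPKO, 0.75 and 0.51 in Trsp-Ins1KO, and 0.96 and 0.78 in TrspFF. Eif2s3y stood at 0.37 and 0.32, 1.11 and 1.02, and 1.53 and 1.41. Kdm5d and Uty probe A_55_P2134967 were also lowest in Trsp-RIPKO, but Uty probe A_52_P345539 was not. These sex-linked differences and genotype cannot be told apart. Leaving out every array with Xist would leave a single group, so no result can be given without them. The Trsp-RIPKO arrays were on slide 2 and the other 4 on slide 1, so for Trsp-RIPKO the effects of slide and genotype cannot be told apart, while Trsp-Ins1KO against TrspFF was a comparison within slide 1. The array annotation names no Trsp probe, so the deleted gene gives no check of the labels. The authors' deposited table of log2 values also gives the Trsp-Ins1KO and TrspFF columns the opposite way round from the scanner files, and the groups used here are those of the scanner files. With the table's own column names, no member was called in Trsp-RIPKO against TrspFF, and the 5 calls in Trsp-Ins1KO against TrspFF became 5 higher in place of 5 lower.

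Of the 7 members, 5 were called lower and 0 higher in Trsp-RIPKO against TrspFF, at an adjusted p under 0.05 in limma (Benjamini-Hochberg over 19021 genes). Over all genes tested, 17.5% were called lower and 18.9% higher in the same comparison. The members' median log2 difference was -0.36, against a median over all genes of -0.0002. In Trsp-Ins1KO against TrspFF, 5 members were again called lower and 0 higher, where 23.0% of all genes were called lower and 23.0% higher. The members' median there was -0.42, against -0.014 over all genes. Scaling to each array's median in place of its 75th percentile moved the median of all genes to -0.24 in Trsp-RIPKO against TrspFF and left 6 members lower there and 5 in Trsp-Ins1KO against TrspFF. Both comparisons use the same 2 TrspFF arrays, so their calls are not independent. The count in Trsp-RIPKO against TrspFF rested on few arrays. It was 0 without TrspFF 1, 1 without TrspFF 2, 1 without Trsp-RIPKO 2 and 2 without Trsp-RIPKO 1. The count in Trsp-Ins1KO against TrspFF was 2 without TrspFF 1 and 2 without TrspFF 2. Fewer cells of a type and less mRNA per cell cannot be told apart in whole islets.

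**Figure D1:**
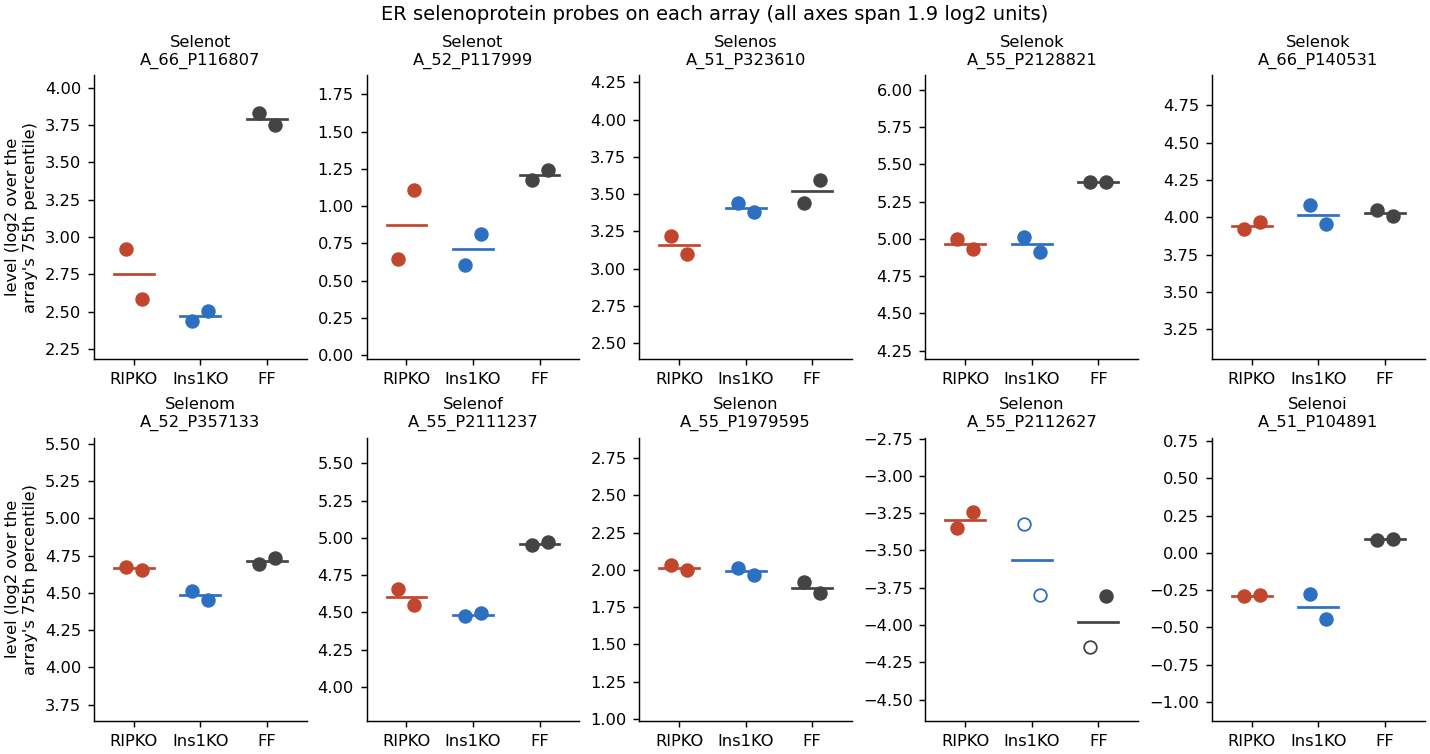
Levels of all 10 probes on each of the 6 arrays, as log2 of processed intensity over the array's 75th percentile. Points are arrays, bars are means of 2, open points were not well above background, and the Trsp-RIPKO, Trsp-Ins1KO and TrspFF groups run left to right; the brighter Selenot probe is at or below 2.92 in the knockout lines and at or above 3.75 in TrspFF.

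Selenot, a thioredoxin-like oxidoreductase of the ER membrane, was measured by 2 probes. On probe A_66_P116807 its level was 2.92 and 2.59 in Trsp-RIPKO, 2.44 and 2.50 in Trsp-Ins1KO, and 3.83 and 3.75 in TrspFF. All 4 knockout arrays lay below both TrspFF arrays, with the Trsp-Ins1KO arrays below the Trsp-RIPKO arrays. The log2 difference was -1.04 in Trsp-RIPKO against TrspFF (SE 0.125, adjusted p = 0.00793, limma). Only 0.61% of all genes had a difference as low or lower. In Trsp-Ins1KO against TrspFF it was -1.32 (SE 0.125, adjusted p = 0.00256), with 1.82% of genes as low or lower. The second call held without any single array, whereas the first was lost without TrspFF 1 (adjusted p = 0.0569). The dimmer probe A_52_P117999 gave 0.64 and 1.11 in Trsp-RIPKO, 0.61 and 0.82 in Trsp-Ins1KO, and 1.18 and 1.24 in TrspFF. Its knockout arrays also all lay below TrspFF, but the distance was smaller, and the Trsp-RIPKO 2 array came close to TrspFF. Its log2 differences were -0.33 (SE 0.172, adjusted p = 0.185, over 23199 probes) and -0.50 (SE 0.172, adjusted p = 0.0668), so this probe was called in neither comparison. The 2 probes shared direction but not size, and the files do not say which transcripts each one binds.

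Selenos, a membrane protein that recruits the ATPase Vcp to the ER, stood at 3.22 and 3.097 in Trsp-RIPKO, 3.44 and 3.38 in Trsp-Ins1KO, and 3.44 and 3.59 in TrspFF. The Trsp-RIPKO arrays were the lowest, and the higher Trsp-Ins1KO array nearly met the lower TrspFF array. The log2 difference was -0.36 in Trsp-RIPKO against TrspFF (SE 0.088, adjusted p = 0.0324) and -0.11 in Trsp-Ins1KO against TrspFF (SE 0.088, adjusted p = 0.347). The first call was lost without either TrspFF array or either Trsp-RIPKO array, with an adjusted p of up to 0.157. The test of the difference between the lines, Trsp-Ins1KO against Trsp-RIPKO, gave 0.25 (95% interval 0.025 to 0.477, adjusted p = 0.0777). A difference between the knockout lines was therefore not called for Selenos.

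Selenok, a membrane partner of the palmitoyltransferase Zdhhc6, was also measured by 2 probes, and these disagreed. On probe A_55_P2128821 the level was 4.9995 and 4.93 in Trsp-RIPKO, 5.01 and 4.91 in Trsp-Ins1KO, and 5.38 on both TrspFF arrays. The knockout lines could not be separated from each other and both lay below TrspFF. The log2 difference was -0.41 in Trsp-RIPKO against TrspFF (SE 0.073, adjusted p = 0.0154) and -0.42 in Trsp-Ins1KO against TrspFF (SE 0.073, adjusted p = 0.00972). Probe A_66_P140531 gave 3.92 and 3.97 in Trsp-RIPKO, 4.08 and 3.96 in Trsp-Ins1KO, and 4.05 and 4.01 in TrspFF. Its Trsp-Ins1KO arrays lay on both sides of TrspFF. Its differences were -0.08 (SE 0.078, adjusted p = 0.433) and -0.01 (SE 0.078, adjusted p = 0.934). With the mean over both probes, Selenok was no longer called in Trsp-RIPKO (-0.25, adjusted p = 0.0515) or in Trsp-Ins1KO (-0.21, adjusted p = 0.0644), so its call rests on the brighter probe. On that probe the Trsp-RIPKO call was lost without any 1 of the 4 arrays compared (adjusted p up to 0.0940), and the Trsp-Ins1KO call without TrspFF 1 (adjusted p = 0.0656) or TrspFF 2 (adjusted p = 0.0620).

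Selenof, which binds the glycoprotein-folding sensor Uggt1, had a level of 4.66 and 4.55 in Trsp-RIPKO, 4.48 and 4.49 in Trsp-Ins1KO, and 4.95 and 4.97 in TrspFF. The groups did not overlap, and Trsp-Ins1KO was the lowest. Its log2 difference was -0.36 in Trsp-RIPKO against TrspFF (SE 0.071, adjusted p = 0.020) and -0.48 in Trsp-Ins1KO against TrspFF (SE 0.071, adjusted p = 0.00649). The Trsp-Ins1KO call held, narrowly, without any single array. Of the 4 arrays compared, the Trsp-RIPKO call held only without Trsp-RIPKO 1 and was lost without Trsp-RIPKO 2, TrspFF 1 or TrspFF 2.

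Selenom, a soluble thioredoxin-like protein of the ER lumen, stood at 4.67 and 4.66 in Trsp-RIPKO, 4.51 and 4.45 in Trsp-Ins1KO, and 4.69 and 4.73 in TrspFF. The Trsp-RIPKO arrays lay just under TrspFF and the Trsp-Ins1KO arrays lower. The log2 difference was -0.05 in Trsp-RIPKO against TrspFF (SE 0.066, adjusted p = 0.608) and -0.23 in Trsp-Ins1KO against TrspFF (SE 0.066, adjusted p = 0.0413). That call was lost in all 6 fits that left out an array, with adjusted p between 0.056 and 0.195.

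Selenon, an ER membrane protein known for its part in muscle calcium handling, was called in neither line, and its small positive difference in Trsp-RIPKO turned to -0.10 under median scaling and that in Trsp-Ins1KO to -0.05 under normexp background correction. Its brighter probe A_55_P1979595 gave 2.03 and 2.00 in Trsp-RIPKO, 2.01 and 1.96 in Trsp-Ins1KO, and 1.92 and 1.84 in TrspFF. The knockout arrays lay slightly above TrspFF, with log2 differences of 0.13 (95% interval -0.04 to 0.31, adjusted p = 0.180) and 0.11 (95% interval -0.07 to 0.28, adjusted p = 0.247). The dim probe A_55_P2112627 was well above background on both Trsp-RIPKO arrays, on no Trsp-Ins1KO array and on 1 TrspFF array. Its levels were -3.35 and -3.24 in Trsp-RIPKO, -3.32 and -3.80 in Trsp-Ins1KO, and -4.15 and -3.81 in TrspFF. The probe thus entered the fit only through Trsp-RIPKO, the group where it was brightest. Its difference in Trsp-RIPKO against TrspFF, 0.68 (SE 0.196, adjusted p = 0.05002), was not called and is weak support. In Trsp-Ins1KO against Trsp-RIPKO its arrays overlapped and it was not called (-0.27, 95% interval -0.77 to 0.23, adjusted p = 0.329). Trsp-Ins1KO was also taken at the dimmest signal still well above background on each array, or at its own if that was brighter. The Trsp-RIPKO mean was then 1.04-fold that of Trsp-Ins1KO, so no difference was shown.

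Selenoi, the ethanolaminephosphotransferase that completes phosphatidylethanolamine synthesis, was spotted 10 times on each array. Its mean level was -0.29 and -0.28 in Trsp-RIPKO, -0.28 and -0.45 in Trsp-Ins1KO, and 0.09 on both TrspFF arrays. The log2 difference was -0.38 in Trsp-RIPKO against TrspFF (SE 0.082, adjusted p = 0.0239) and -0.45 in Trsp-Ins1KO against TrspFF (SE 0.082, adjusted p = 0.0107). The Trsp-RIPKO call was lost without any 1 of the 4 arrays compared, with adjusted p between 0.0851 and 0.121, and the Trsp-Ins1KO call without TrspFF 1 (adjusted p = 0.0672) or TrspFF 2 (adjusted p = 0.0639). The single spots ranged from -0.48 to -0.19 in Trsp-RIPKO, from -0.59 to -0.18 in Trsp-Ins1KO and from -0.02 to 0.19 in TrspFF. No knockout spot reached the lowest TrspFF spot. The SD of spots within an array was 0.045 to 0.099, and 1 outlier spot of TrspFF 2 was left out. Repeated spots measure the same labelled RNA and are not further samples.

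**Figure D2:**
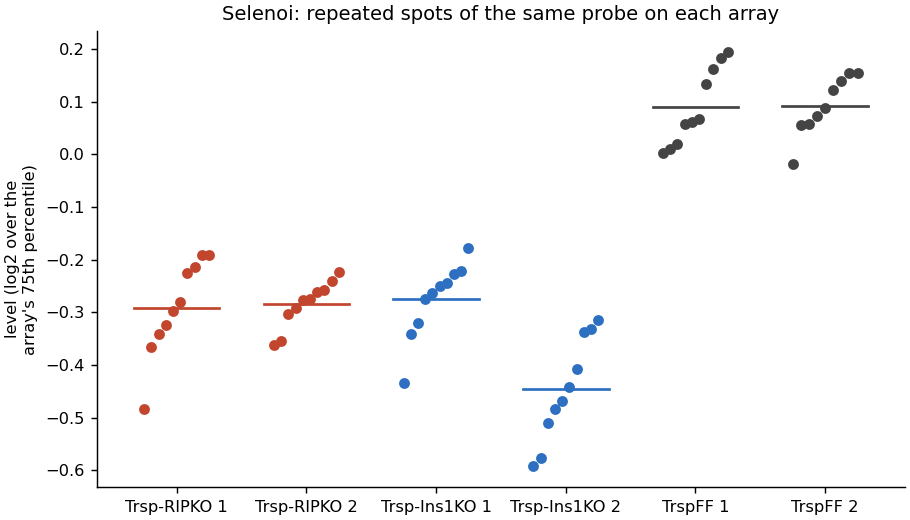
Levels of the repeated Selenoi spots on each array (log2 over the array's 75th percentile), sorted within an array, with bars at the array means. The spots of the 4 knockout arrays lie at or below -0.18 and those of the TrspFF arrays at or above -0.02.

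Trsp-Ins1KO and Trsp-RIPKO islets were compared to learn whether the lines differed. No member of 7 was called by limma, while 38.7% of all genes tested were. At an unadjusted p under 0.05 there were 2, Selenom (-0.18, 95% interval -0.35 to -0.01) and Selenos (0.25). With trend and robust options limma called 3, with another background correction (normexp) 4, and with median scaling 1. The Selenot difference was -0.28 (95% interval -0.60 to 0.04, adjusted p = 0.132), so a further fall in Trsp-Ins1KO is within this interval. For Selenof it was -0.12 (95% interval -0.30 to 0.06), for Selenok -0.004 (-0.19 to 0.18), for Selenon -0.02 (-0.20 to 0.15) and for Selenoi -0.07 (-0.28 to 0.14). With the half-width of the intervals at up to 0.32, these arrays do not show that the lines act alike.

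**Figure D3:**
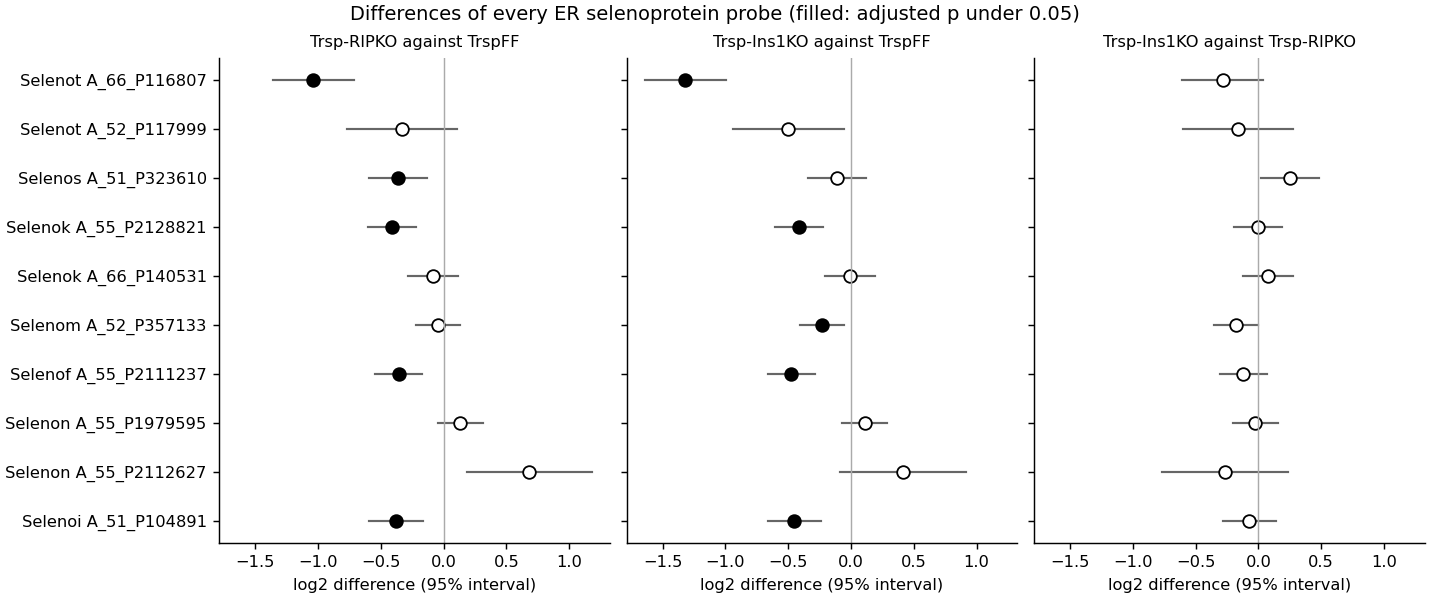
Log2 differences of all 10 probes with 95% intervals from the fit over 23199 probes, with positive values higher in the first-named group and filled points at an adjusted p under 0.05. In both comparisons with TrspFF, 5 probes were called lower and none higher, and in Trsp-Ins1KO against Trsp-RIPKO none was called.

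In the fit over probes, 5 of the 10 probes were called lower and 0 higher in each comparison with TrspFF. Over all probes, 16.2% were called lower and 17.5% higher in Trsp-RIPKO against TrspFF, and 22.6% lower and 21.9% higher in Trsp-Ins1KO against TrspFF. In Trsp-Ins1KO against Trsp-RIPKO 0 of 10 were called, where 36.1% of all probes were. The 3 dimmer second probes of Selenot, Selenok and Selenon were among those not called in any comparison.

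The remaining selenoproteins and the lists below are to be read against the 17.5% of all genes called lower and 18.9% called higher in Trsp-RIPKO against TrspFF, and the 23.0% lower and 23.0% higher in Trsp-Ins1KO against TrspFF. Of 15 other selenoproteins tested, 8 were called lower and 2 higher in Trsp-RIPKO against TrspFF (median log2 difference -0.34), and 5 lower and 6 higher in Trsp-Ins1KO against TrspFF (median -0.03). Dio2 and Dio3 were not tested. In Trsp-RIPKO islets, the cases with the largest differences were Gpx2, a glutathione peroxidase of epithelia (0.90, adjusted p = 0.00362), Selenoh, a nuclear selenoprotein (-0.83, adjusted p = 0.00484), and Gpx4, which reduces lipid hydroperoxides (-0.79, adjusted p = 0.00579). In Trsp-Ins1KO islets they were Gpx2 (2.01, adjusted p = 0.000399), the cytosolic peroxidase Gpx1 (-1.15, adjusted p = 0.00255) and the selenium carrier Selenop (-0.95, adjusted p = 0.00172).

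Of 7 known partners of the ER selenoproteins tested, 1 was called lower and 0 higher in each comparison with TrspFF, against the 17.5% and 23.0% of all genes called lower in Trsp-RIPKO and Trsp-Ins1KO. In Trsp-RIPKO against TrspFF this was Atp2a2, the ER calcium pump (-0.46, adjusted p = 0.020), which had a second probe at 0.21 (adjusted p = 0.215). In Trsp-Ins1KO against TrspFF it was Derl2, a channel component of ER-associated degradation (-0.39, adjusted p = 0.00889), whose other 2 probes were called lower as well (-0.63 and -0.77). The Derl2 representative gave -0.11 in Trsp-RIPKO (adjusted p = 0.226), where its other probes were called lower (-0.39, adjusted p = 0.0170, and -0.55, adjusted p = 0.0347, over 23199 probes). The log2 differences in Trsp-RIPKO and Trsp-Ins1KO were -0.33 and -0.26 for Zdhhc6, 0.03 and 0.17 for Vcp, -0.14 and -0.03 for Derl1, 0.09 and 0.09 for Uggt1, and 0.01 and -0.13 for Uggt2. Second probes gave 0.12 and 0.18 for Zdhhc6, 0.27 and 0.14 for Derl1, -0.13 and 0.20 for Uggt1, and -0.02 and 0.003 for Uggt2. None of these was called. Atp2a2 in Trsp-Ins1KO gave -0.24 (adjusted p = 0.0830). Ryr1 and Ryr2 were not tested.

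Genes of the processes in which these selenoproteins take part were called in both directions in most lists, and in Trsp-RIPKO the called shares of several lists were under those of all genes. For ER-associated degradation, 27 genes were tested, with 2 called lower and 3 higher in Trsp-RIPKO against TrspFF and 6 lower and 11 higher in Trsp-Ins1KO against TrspFF. Derl3, a derlin of secretory cells, was higher in both (0.90 and 1.35), and Svip was lower in Trsp-RIPKO (-0.42). Ubxn4 was dim, at -3.29 and -3.37 in Trsp-RIPKO and -5.59 and -5.19 in TrspFF, where it was not well above background. It thus entered the fit only through a group where it was brighter, so its call (fitted difference 2.06, adjusted p = 0.0123) is weak support. With TrspFF taken as for the dim Selenon probe, Trsp-RIPKO was at least 2.05-fold higher. The call was lost without any 1 of the 4 arrays compared. Syvn1, the ubiquitin ligase of this route (0.87), and the Vcp adaptor Nploc4 (0.74) were higher in Trsp-Ins1KO.

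For ER folding and disulfide formation, 30 genes were tested, with 3 lower and 3 higher in Trsp-RIPKO and 5 lower and 8 higher in Trsp-Ins1KO. Hyou1, an ER chaperone, and Qsox1, a sulfhydryl oxidase, were higher in both lines (Hyou1 0.68 and 1.10, Qsox1 0.37 and 1.38). Ero1b, the oxidase that drives disulfide formation in islets, was lower in both (-0.50 and -0.86). Without a filter on dim probes, Hyou1, Qsox1 and Ero1b lost their calls in Trsp-RIPKO. The Qsox1 call there was also lost under median scaling (0.13) and normexp background correction.

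Of 15 regulators of the unfolded protein response, the programme that answers ER load, 3 were lower and 2 higher in Trsp-RIPKO (median -0.06), against 1 lower and 8 higher in Trsp-Ins1KO (median 0.42). Trib3, an inhibitor induced under stress, was higher in both (0.84 and 2.20). Atf6 (-0.52) and Ddit3 (-0.42) were lower in Trsp-RIPKO, and the transcription factors Creb3l1 (1.51) and Creb3l2 (0.93) were higher in Trsp-Ins1KO.

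Of 12 genes of ER calcium handling, 2 were lower and 0 higher in Trsp-RIPKO, and 2 lower and 5 higher in Trsp-Ins1KO. Atp2a2 (above) and Tmco1 (-0.27) were those lower in Trsp-RIPKO. The inositol trisphosphate receptors Itpr2 (0.90) and Itpr3 (0.69) and the store-operated channel subunit Orai2 (0.79) were higher in Trsp-Ins1KO. Ryr1, Ryr2 and Ryr3 were not tested.

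Of 14 genes of ethanolamine and choline phospholipid synthesis, the pathway of Selenoi, 2 were lower and 1 higher in Trsp-RIPKO and 3 were lower and 3 higher in Trsp-Ins1KO. Etnk1, the ethanolamine kinase at the head of that pathway, was higher in both (0.59 and 0.42). Pisd (-0.42) and Chpt1 (-0.30) were lower in Trsp-RIPKO, and in Trsp-Ins1KO Agps was lower (-0.60) and Ptdss2 higher (0.57). Of the 17 list genes named here as called in Trsp-RIPKO against TrspFF, 4 stayed called in every fit that left out an array, and leaving out TrspFF 1 lost 13, TrspFF 2 lost 12, Trsp-RIPKO 2 lost 12 and Trsp-RIPKO 1 lost 9. Of the 19 so named in Trsp-Ins1KO against TrspFF, 15 stayed called.

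**Figure D4:**
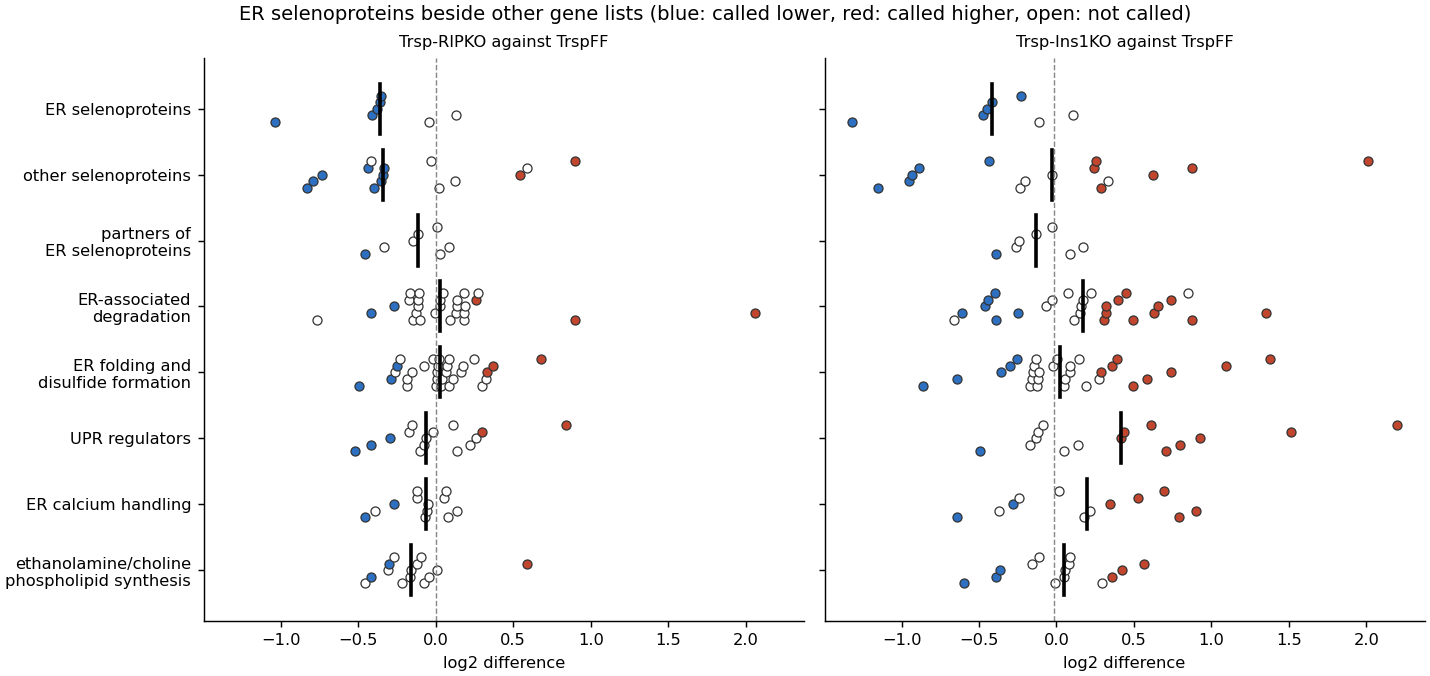
Log2 differences of the ER selenoproteins and of 7 other gene lists in both comparisons with TrspFF, with a point per gene, a bar at each list's median and a dashed line at the median of all genes tested. The ER selenoproteins hold 5 genes called lower and none called higher in each panel. The other selenoproteins hold 8 called lower and 2 higher in Trsp-RIPKO, and 5 lower and 6 higher in Trsp-Ins1KO.

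Markers of other cell types also differed between the groups. Acinar-cell markers summed to 35.7 and 39.6 times the 75th percentile in Trsp-RIPKO, 33.5 and 31.1 in Trsp-Ins1KO, and 20.5 and 21.2 in TrspFF. Of 15 tested, 13 were called higher in Trsp-RIPKO and 12 higher and 1 lower in Trsp-Ins1KO. Fibroblast and stellate-cell markers summed to 20.5 and 20.4 in Trsp-RIPKO, 5.41 and 5.55 in Trsp-Ins1KO, and 13.3 and 13.7 in TrspFF, with 8 of 9 called higher in Trsp-RIPKO, and 7 lower and 1 higher in Trsp-Ins1KO. Markers of small intestine epithelium were called higher for 6 of 7 in Trsp-RIPKO and 4 of 7 in Trsp-Ins1KO. Their sums were 12.4 and 13.0 in Trsp-RIPKO, 14.2 and 13.3 in Trsp-Ins1KO, and 9.14 and 9.02 in TrspFF. These sums rested mostly on Vil1, Anpep and Lgals4, the brightest on every array, and say little of the dimmer markers. Of 11 markers on the array 7 were well above background in Trsp-RIPKO, 4 in Trsp-Ins1KO and 4 in TrspFF. In Trsp-Ins1KO against Trsp-RIPKO, 4 of 7 were called lower, namely Fabp2 (-3.96), Tff3 (-3.18), Krt20 (-1.92) and Lgals4 (-0.51), and 1 higher, Anpep (0.77). Over all genes tested, 38.7% were called there. Fabp2, Tff3 and Krt20 were dim in Trsp-Ins1KO, at -3.99 and -5.70, -4.18 and -5.18, and -5.03 and -5.60, so the sizes of their differences are uncertain. A marker well above background only in Trsp-RIPKO entered the fit through that group, so its calls are weak support. Beta-cell markers summed to 3628 and 3888 in Trsp-RIPKO, 5907 and 6479 in Trsp-Ins1KO, and 3272 and 3668 in TrspFF. Ins1, Ins2 and Iapp, the brightest on every array, made up most of these sums, which say little of the other markers. Of the 10 beta-cell markers, 4 were called lower and 0 higher in Trsp-RIPKO, namely Slc2a2 (-0.62), Ucn3 (-1.21), Nkx6-1 (-0.57) and Slc30a8 (-0.43), while the hormone genes Ins1, Ins2 and Iapp were not called there. In Trsp-Ins1KO 2 were called lower, Slc2a2 (-0.71) and Slc30a8 (-0.75), and 6 higher, Ins1, Ins2 and Iapp among them. These beta-cell genes were picked for naming after their values were seen. Markers of alpha, delta and PP cells summed to 1048 and 1117 in Trsp-RIPKO, 1116 and 1031 in Trsp-Ins1KO, and 1551 and 1569 in TrspFF, with 4 of 8 called lower and 1 higher in Trsp-RIPKO, and 5 lower and 0 higher in Trsp-Ins1KO. Endothelial markers summed to 57.3 and 57.0 in Trsp-RIPKO, 80.3 and 85.1 in Trsp-Ins1KO, and 43.5 and 44.7 in TrspFF, with 5 of 8 called higher in each knockout line. The sums of macrophage and duct markers varied less, from 6.64 to 8.93 and from 3.88 to 4.62 over the 6 arrays. Single markers did differ. Of 7 macrophage markers tested, 0 were called lower in either line, with 2 higher in Trsp-RIPKO and 3 in Trsp-Ins1KO. Of 5 duct markers tested, Krt7 (-0.56) was lower and Cftr (1.56) and Spp1 (1.84) higher in Trsp-RIPKO. In Trsp-Ins1KO, Cftr (-0.44) was lower and Spp1 (0.51) higher. The part of these differences in the ER selenoprotein results was not tested.

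The genes whose levels over the 6 arrays were most like those of the called members were named by Pearson's r. Selenof was most like Acad9, Ptp4a1 and Chchd1 (r = 0.999, 0.998 and 0.997). Selenoi was most like Hbp1, Ssu72 and Rraga (r = 0.999, 0.999 and 0.998). Selenok was most like Shld1 and Mrpl30 (r = 0.999 and 0.998) and a feature with no gene symbol. Selenot was most like a feature with no gene symbol, then Bex4 and Cnbp (r = 0.998 for each). Selenos was most like Elmod2, Alg9 and Atf6 (r = 0.996, 0.991 and 0.990), and Selenom only like features with no symbol. These are descriptions over 6 arrays that share scaling and groups. With so few arrays many genes reach such values, and r was over 0.95 for 129 of 19020 genes with Selenos and for 951 with Selenoi, the lowest and highest numbers among the called members.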

How the data were processed

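Total RNA of islets was labelled with Cy3 and hybridised to 6 Agilent 1-colour arrays of design 026655, 2 per group, with groups taken from the sample titles. Per the file headers, the authors read the arrays with Feature Extraction 10.7.3.1. The deposited scanner files hold a background-subtracted processed intensity for each spot, not scaled between arrays, with 0 or 1 flags for spots well above background and outlier spots. No non-control spot was saturated. The authors' deposited table holds log2 values centred by probe. How it was scaled is not given in the sources, and its differences between columns matched log2 processed intensity over each array's 75th percentile. Its column medians were 0.011 and -0.029 for Trsp-RIPKO, -0.079 and -0.045 for Trsp-Ins1KO and 0.087 and 0.141 for TrspFF, by its own names. Over 19486 probes, its columns named TrspFF matched Trsp-Ins1KO scanner values (r = 1), while those named Trsp-Ins1KO matched TrspFF.

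Here, spots of a probe were averaged without control and outlier spots, and log2 intensity had the array's 75th percentile subtracted. Probes had to be well above background on both arrays of some group (23199 probes, 19021 genes), and the brightest of them stood for a gene. RefSeq accessions named 26053 probes (66.1%) through a GRCm38.p6 table. limma 3.58.1 in R 4.3.3 fitted a mean per group over 6 arrays, with two-sided tests and Benjamini-Hochberg adjustment, and was tested on simulated data. The precision is limited by 2 arrays per group. Members, gene lists, markers and tests were chosen with earlier results of these data known. Named were all members with every probe, all partners, the 3 called genes with the largest difference in each other list, and the 3 genes most like each called member. The alternatives were quantile or median scaling, normexp background correction, other filters, the mean over probes, other fits, the authors' table, a replicate block and each array left out.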

Additional observations from a re-analysis of the deposited data

How the results depend on the processing

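All 5 calls lower in Trsp-RIPKO against TrspFF were kept under quantile and median scaling, normexp, the stricter probe filter, the 2 groups alone, trend and robust options and the authors' table by matched columns, and Selenom was added under median scaling and normexp. In Trsp-Ins1KO against TrspFF all 5 were kept under median scaling, normexp (which added Selenos), the stricter probe filter, trend and robust options and the matched columns, and 4 were kept under quantile scaling (Selenom lost, adjusted p = 0.0719), with the 2 groups alone (Selenom lost, adjusted p = 0.0689) and without a filter on dim probes (Selenom lost, adjusted p = 0.0844). The mean over probes kept 4 calls in each, losing Selenok, and called Selenon higher in Trsp-RIPKO (0.41, adjusted p = 0.0447). That mean takes in the dim Selenon probe (0.68, against 0.13 for the brighter probe). The dim probe entered the fit only through Trsp-RIPKO, where it was brightest, so this call is weak support. Without a filter on dim probes 1 member remained called in Trsp-RIPKO against TrspFF, Selenot. The same-numbered arrays did not pair (r = 0.093, 0.079 and 0.065 between groups), and with a replicate block 4 members were called in each comparison with TrspFF, Selenos in Trsp-RIPKO (adjusted p = 0.0524) and Selenom in Trsp-Ins1KO (adjusted p = 0.0623) being lost. In Trsp-Ins1KO against Trsp-RIPKO, 1 member was called under median scaling, 4 under normexp, 3 with trend and robust options and 5 with the authors' own column names, and the probe counts were 1, 7, 3 and 6. Normexp gave 9 called probes in Trsp-Ins1KO against TrspFF. By the authors' own names, 0 members and 0 probes were called in Trsp-RIPKO against TrspFF.

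Leaving out an array in turn gave 0 to 5 members and 0 to 6 probes in Trsp-RIPKO against TrspFF, 2 to 4 members and 1 to 5 probes in Trsp-Ins1KO against TrspFF, and 0 to 1 of each in Trsp-Ins1KO against Trsp-RIPKO. Of the 114 genes tested in the other lists, 31 were called in Trsp-RIPKO against TrspFF (4 to 34 with an array left out, 59 under median scaling, 7 with no filter, 50 by the authors' own names). There were 63 in Trsp-Ins1KO against TrspFF (30 to 57 with an array left out) and 50 in Trsp-Ins1KO against Trsp-RIPKO (30 to 42 with an array left out, 31 by the authors' own names). The split moved with scaling, from 20 lower and 11 higher to 52 lower and 7 higher under median scaling in Trsp-RIPKO against TrspFF.

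The signs of the following log2 differences turned. The cause was not tested, except that the authors' own names exchange 2 groups. By these names, Trsp-Ins1KO against TrspFF gave Selenof 0.48, Selenok 0.42, Selenom 0.23, Selenon -0.11, Selenos 0.11, Selenot 1.32 and Selenoi 0.45, and the second probes of Selenok 0.0091, Selenon -0.42 and Selenot 0.50. It gave Gpx2 -2.01, Gpx1 1.15, Selenop 0.95, Derl3 -1.35, Syvn1 -0.87, Nploc4 -0.74, Qsox1 -1.38, Hyou1 -1.10, Ero1b 0.86, Trib3 -2.20, Creb3l1 -1.51, Creb3l2 -0.93, Itpr2 -0.90, Orai2 -0.79, Itpr3 -0.69, Agps 0.60, Ptdss2 -0.57 and Etnk1 -0.42. The partners gave Zdhhc6 0.26, Vcp -0.17, Derl1 0.031, Derl2 0.39, Uggt1 -0.086, Uggt2 0.14 and Atp2a2 0.24. By the same names, Trsp-RIPKO against TrspFF gave Selenof 0.12, Selenok 0.0051, Selenom 0.18, Selenot 0.28, its second probe 0.17, Selenoi 0.073, Gpx2 -1.12, Selenoh 0.10, Gpx4 0.094, Derl3 -0.45, Svip 0.023, Hyou1 -0.42, Ero1b 0.37, Qsox1 -1.01, Trib3 -1.36, Tmco1 0.010, Chpt1 0.095, Vcp -0.14 and Derl2 0.28. Trsp-Ins1KO against Trsp-RIPKO gave Selenof 0.36, Selenok 0.41, Selenom 0.046, Selenot 1.04, its second probe 0.33 and Selenoi 0.38.

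Median scaling gave Selenon -0.10, Vcp -0.21, Uggt1 -0.15 and Uggt2 -0.23 in Trsp-RIPKO against TrspFF. In Trsp-Ins1KO against Trsp-RIPKO it gave Selenof 0.048, Selenok 0.16, Selenon 0.14, Selenoi 0.095 and the second Selenot probe 0.0024. Normexp gave Vcp -0.056, Derl2 0.13 and Uggt2 -0.043 in Trsp-RIPKO against TrspFF, and Selenon -0.050, Vcp -0.14, Uggt1 -0.14 and Uggt2 0.066 in Trsp-Ins1KO against TrspFF. In Trsp-Ins1KO against Trsp-RIPKO it gave Selenos -0.016, Selenoi 0.019 and the second probes of Selenok -0.19 and Selenon 0.42. The mean over probes gave Derl1 0.063, Uggt1 -0.024 and Uggt2 -0.0074 in Trsp-RIPKO against TrspFF, Derl1 0.055 and Atp2a2 0.0034 in Trsp-Ins1KO against TrspFF, and Selenok 0.035 in Trsp-Ins1KO against Trsp-RIPKO. Quantile normalization gave Selenom 0.00078 and Uggt2 -0.047 in Trsp-RIPKO against TrspFF and Selenok 0.042 in Trsp-Ins1KO against Trsp-RIPKO. With an array left out, the range crossed 0 for Selenok (-0.057 to 0.048), Selenon (-0.050 to 0.00015), Selenoi (-0.16 to 0.013) and the second Selenot probe (-0.40 to 0.067) in Trsp-Ins1KO against Trsp-RIPKO. It did so for the second Selenok probe (-0.071 to 0.054) and Derl1 (-0.11 to 0.045) in Trsp-Ins1KO against TrspFF, and for Vcp (-0.079 to 0.13) and Uggt2 (-0.11 to 0.13) in Trsp-RIPKO against TrspFF. Of the values that turned, those called in both settings all came from the authors' own names.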
